A study of Mus musculus with 20 samples.

Results

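Matrix metalloproteinases (MMPs) and tissue inhibitors of metalloproteinases (TIMPs) were followed in the livers of 20 mice. The 10 genes were taken by name from a table of 38924 genes: 7 metalloproteinases (Mmp2, Mmp7, Mmp9, Mmp12, Mmp13, Mmp14 and Mmp19) and 3 inhibitors (Timp1, Timp2 and Timp3). The mice were male and were bought at 5 weeks of age, given 1 week to settle, and kept for 12 weeks on 1 of 2 purified diets. Wild Type (WT) mice of the C57/BL6 background, named as substrain C57BL/6J in the methods, received the control diet (NDWT) or CDAHFD, a high fat diet with L-amino acids in place of protein, no choline and little methionine (HFWT). TSP1 Knockout mice, written here as labelled TSP-1 null or labelled null, are knockouts of Thbs1, the gene for thrombospondin-1, according to their labels, and received the control diet (NDKO) or CDAHFD (HFKO). The paper places the TSP-1 deficiency on a C57BL/6J background. Knockout and WT mice were bought from the same supplier, and littermates are not mentioned. Each group held 5 mice, with 1 RNA-seq library per mouse.

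Metalloproteinases are zinc enzymes, secreted or held at the cell surface, that cut collagens, elastin, basement membrane proteins and other proteins outside the cell. They are made as inactive zymogens and are held in check by the TIMPs, which bind the active site of the mature enzyme. In the injured liver, hepatic stellate cells and myofibroblasts, macrophages, neutrophils and bile duct cells are known sources of these proteins, and enzymes and inhibitors are both known to be made during fibrosis.

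Levels are given as FPKM, fragment counts divided by gene length and by the fragments assigned to genes in the library, so that genes can be compared per length. The libraries held 15641545 to 23276322 assigned fragments, and 3 fragments on a gene of 1 kb correspond to 0.129 to 0.192 FPKM depending on the library. This floor and all fragment intervals below cover counting error only. In whole liver, more cells of a type and more RNA per cell cannot be told apart. Hepatocyte markers were abundant in every library, with a summed level of Alb, Apoa1, Ttr, Cyp2e1 and Cps1 of 27626 to 47388 FPKM. Thbs1 itself went against the genotype labels on the control diet: it was at 0.058 to 0.326 FPKM in NDWT and at 0.986 to 1.90 in the libraries labelled TSP-1 null (log2FC 2.28, SE 0.24, FDR 1.02e-05). On CDAHFD, Thbs1 was at 3.46 to 6.10 FPKM in HFWT and 3.05 to 4.40 in HFKO (log2FC -0.39, SE 0.24, FDR 0.408). FPKM sums the fragments of a whole gene and does not show which exons carry them, so every genotype comparison below is between libraries as they are labelled.

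Among the metalloproteinases, the 3 genes Mmp13, Mmp12 and Mmp7 lie in a cluster of 10 Mmp genes on chromosome 9 that spans 7272514 to 7699585 on the GRCm38 build. In the order of the chromosome the cluster holds Mmp13, Mmp12, Mmp1b, Mmp3, Mmp1a, Mmp10, Mmp8, Mmp27, Mmp20 and Mmp7. Mmp12 reached 8563 fragments in a library, Mmp7 393 and Mmp13 136, whereas Mmp1a, Mmp1b and Mmp20 had 0 fragments in every library. Mmp10 had at most 3 fragments, Mmp3 at most 9, Mmp8 at most 27 and Mmp27 at most 74 in any library. Of these neighbours only Mmp27 passed the filter on low values, with a mean of 0.800 FPKM in HFWT against 1.73 for Mmp13.

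**Figure D1:**
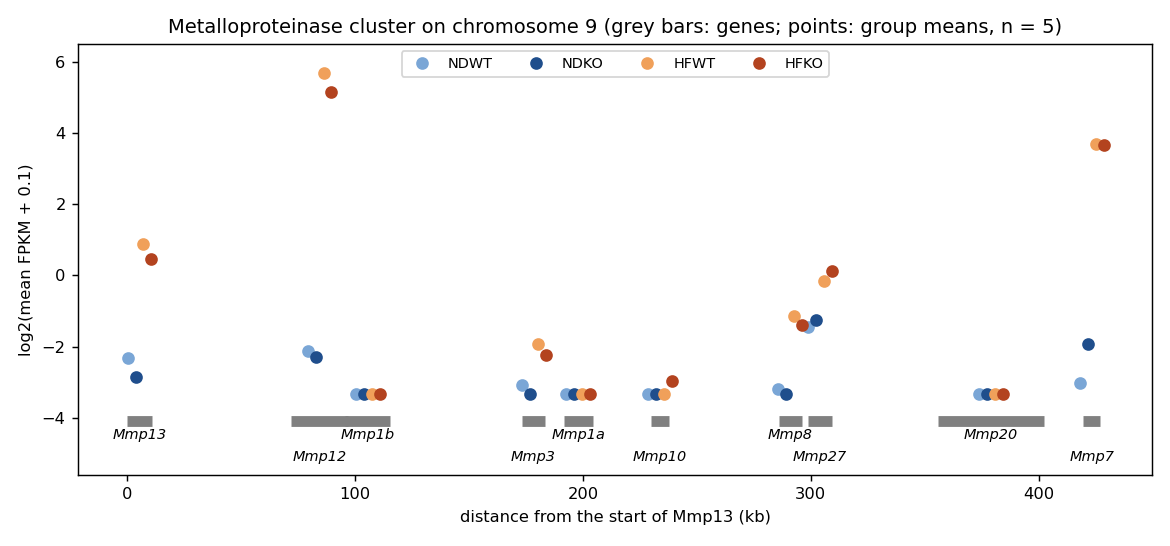
Mean level of the 10 metalloproteinase genes of the chromosome 9 cluster in each group of 5 mice, as log2(mean FPKM + 0.1), against distance in kb from the start of Mmp13, with grey bars for the genes. Mmp12 and Mmp7 stand highest in both CDAHFD groups (mean FPKM 51.0 and 12.7 in HFWT), and Mmp1a, Mmp1b and Mmp20 lie at the bottom in all 4 groups.

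The promoters of this cluster share short letters that can be read in the sequence. The RefSeq windows used here (GRCm38.p6) run from 250 bases before to 50 bases after a start, and 2 motifs were searched on both strands: TGANTCA, the form of site bound by AP-1 factors, and TATAAA, the core of a TATA box. TGANTCA was found in 7.81% of all 32851 windows and TATAAA in 13.6%. Of the 7 members with a window, Mmp7, Mmp12 and Mmp13 held TGANTCA, and Mmp14, Timp1, Timp2 and Timp3 did not. In Mmp7 and Mmp12, 1 of their 2 windows held it. It was present in 8 of the 10 cluster genes and in 0 of the 12 other family genes with a window. TATAAA was present in 9 of the 10 cluster genes and in 1 of the 12 others. Mmp1a and Mmp10, which were at or near the floor in these livers, held TGANTCA as well, and Mmp8 and Mmp27 did not. The 100 bases before the start are shown for the 3 members and for those 2 neighbours, 5′ to 3′, with the TGANTCA match in capitals.
Mmp13, + strand, chr9:7272414-7272513: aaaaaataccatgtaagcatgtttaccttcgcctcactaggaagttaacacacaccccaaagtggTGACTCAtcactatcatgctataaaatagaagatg
Mmp12, second start, + strand, chr9:7347274-7347373: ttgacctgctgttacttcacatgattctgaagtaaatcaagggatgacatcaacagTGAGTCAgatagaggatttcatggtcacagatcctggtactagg
Mmp7, + strand, chr9:7691990-7692089: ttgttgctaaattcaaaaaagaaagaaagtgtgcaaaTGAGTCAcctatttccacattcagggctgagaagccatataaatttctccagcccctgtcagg
Mmp10, + strand, chr9:7502242-7502341: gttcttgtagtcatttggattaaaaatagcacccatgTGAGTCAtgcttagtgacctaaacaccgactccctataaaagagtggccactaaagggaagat
Mmp1a, + strand, chr9:7464041-7464140: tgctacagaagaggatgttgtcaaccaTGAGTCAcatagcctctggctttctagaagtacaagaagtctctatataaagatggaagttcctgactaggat
The match began 35 bases before the start in Mmp13, 44 in Mmp12 and 63 in Mmp7. A match of letters is a description of the sequence and not a bound site.

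The first question was which enzymes and inhibitors the normal liver holds and how far CDAHFD changes them. On the control diet Mmp14 and Mmp19 were the highest of the 7 enzymes, and Timp2 and Timp3 the highest of the 3 inhibitors. Outside the 10 genes, Mmp15 was at a level like that of Mmp19, with a mean of 11.98 FPKM in NDWT and 6.35 in NDKO. In WT mice, 9 of the 10 genes rose on CDAHFD and 0 fell, led on the log2(FPKM + 0.1) scale by Mmp12, Mmp7 and Timp1, and the remaining gene was Mmp19. In mice labelled TSP-1 null, all 10 rose in the test used here, Mmp19 by a margin that depended on the scaling. A gene was called when limma gave an FDR under 0.05 and an absolute log2FC above 0.58 on log2(FPKM + 0.1). Over all 14524 genes tested, 48.8% were called in WT, 44.1% higher and 4.62% lower, and 45.9% in mice labelled null, 41.9% higher and 4% lower. These shares are the background for the counts of members.

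The median gene was shifted as well, by a log2FC of 0.53 in WT and 0.50 in mice labelled null. Relative to that median, 9 of the 10 members were above it in WT and 10 of 10 in mice labelled null. With median of ratios scaling, which brings the median gene close to 0, 22.7% of genes were called higher and 15.4% lower in WT, and with quantile normalization 17.3% and 17.6%. The same 9 members other than Mmp19 were called higher under both scalings, in both genotypes. Mmp7, Mmp9, Mmp12, Mmp13 and Timp1 exceeded 0.5 FPKM in 0 of 10 control diet libraries and 10 of 10 CDAHFD libraries, so they passed the filter on low values only through the group where they were high, and their part in the count is no independent evidence. Of the 5 members above that level in every library, 4 were called in WT and 5 in mice labelled null.

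**Figure D2:**
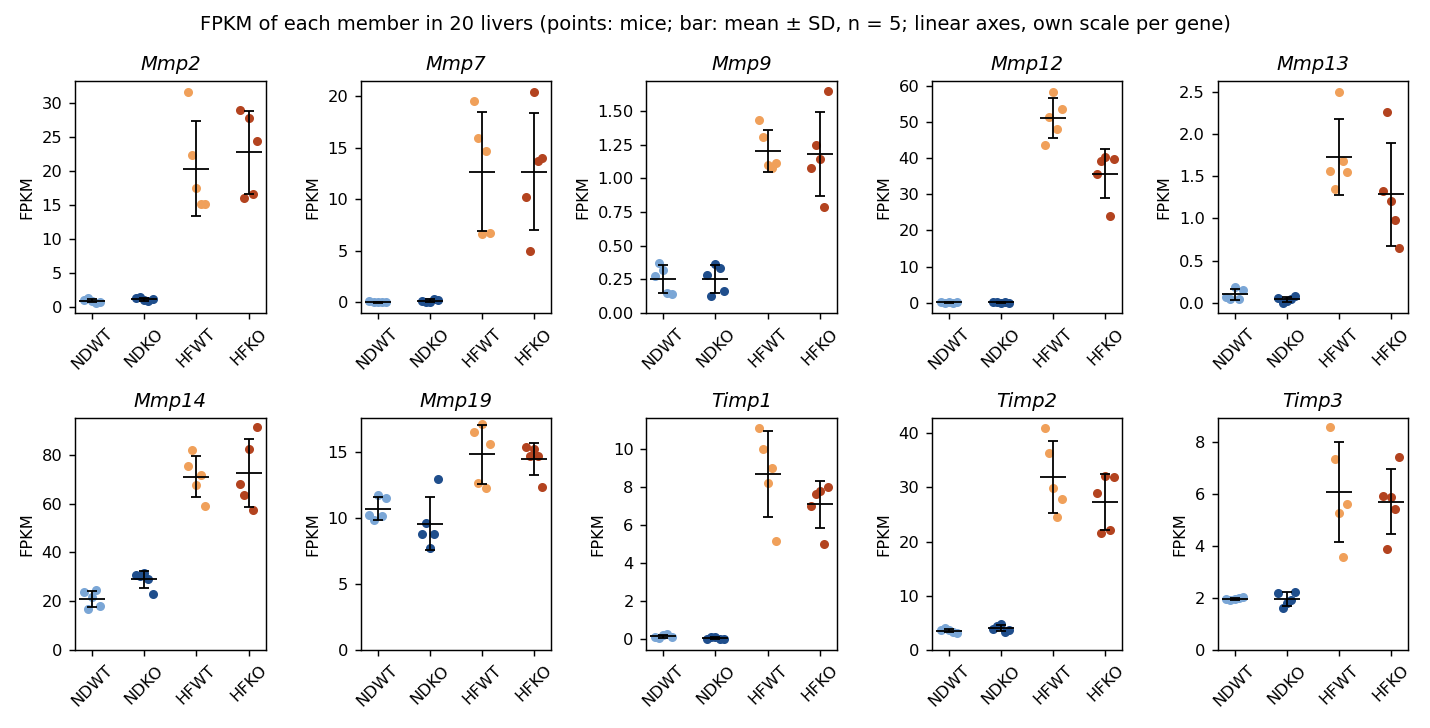
FPKM of each of the 10 genes in every liver on linear axes with a scale of its own per gene. Points are mice, and black bars are the mean and SD of 5 mice. All members but Mmp19 separate the CDAHFD groups from the control diet groups in both genotypes, and Mmp12 alone separates HFWT from HFKO.

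Mmp12, the macrophage elastase, cuts elastin and many other matrix proteins. In NDWT it was at 0.148, 0.075, 0.210, 0.048 and 0.166 FPKM, and in HFWT at 43.6, 51.4, 58.4, 48.2 and 53.6 FPKM. It was at 0.114, 0.158, 0.081, 0.112 and 0.055 FPKM in NDKO and at 35.6, 39.1, 40.2, 24.0 and 39.6 FPKM in HFKO. No control diet library came near a CDAHFD library, and Mmp12 moved from a gene of 6 to 27 fragments per library to the second of the 7 enzymes by mean level. Mmp15, which is not among them, had ranges that overlapped those of Mmp12 on CDAHFD, with a mean of 39.8 FPKM in HFWT and 34.5 in HFKO. The log2FC of Mmp12 was 7.85 in WT (SE 0.19, FDR 1.87e-16) and 7.45 in mice labelled null (SE 0.19, FDR 9.94e-16). With 1 in place of 0.1 added before the log it was 5.52 and 5.03. The ratio of pooled Mmp12 fragments was 386 in WT (95% interval 314 to 479) and 336 in mice labelled null (268 to 427). Mmp12 shares 484 of its 7350 stretches of 31 bases with 1863 other genes. The most shared with a single gene, 130, were with the antisense gene Mmp1b, which was at 0 in every library.

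Mmp7, or matrilysin, is a small metalloproteinase best known from epithelia and bile ducts. It was at 0.121 FPKM in 1 NDWT library, from 3 fragments, and at 0 in the other NDWT libraries. In NDKO it was at 0.136, 0.041, 0.050, 0.351 and 0.232 FPKM, from 1 to 6 fragments per library. On CDAHFD it was at 19.5, 15.95, 6.61, 14.6 and 6.77 FPKM in HFWT and at 10.2, 4.97, 20.5, 13.7 and 14.1 FPKM in HFKO. The diets did not overlap, and Mmp7 had the widest relative spread of the 10 genes in HFWT, with a coefficient of variation of 45.4% there and 44.8% in HFKO. The log2FC was 6.63 in WT (SE 0.40, FDR 3.66e-11) and 5.61 in mice labelled null (SE 0.40, FDR 4.44e-10), and both values depend on the amount added before the log. The ratio of pooled fragments was 428 in WT, with 1275 fragments against 3 and a 95% interval of 146 to 2077, and 83.9 in mice labelled null, with 1291 against 16 and an interval of 51.4 to 147.

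Mmp13 is the main interstitial collagenase of rodents. It lay between 0.044 and 0.189 FPKM in NDWT, between 0 and 0.074 in NDKO, between 1.35 and 2.51 in HFWT and between 0.647 and 2.27 in HFKO. Every CDAHFD library was above every control diet library, although the level remained low, at 33 to 136 fragments per CDAHFD library. The log2FC was 3.24 in both genotypes (SE 0.28, FDR 5.81e-09 in WT and 6.91e-09 in mice labelled null), but 1.30 and 1.10 with 1 added before the log and 1.94 and 2.03 with quantile normalization. The ratio of pooled fragments was 17.8 in WT (95% interval 11.9 to 27.7) and 32.8 in mice labelled null (17.6 to 69.2).

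Mmp14, or MT1-MMP, is anchored in the cell membrane, cuts fibrillar collagen, and activates the zymogen of Mmp2 in a complex with Timp2. It was the highest of the 10 genes in all 4 groups. NDWT libraries held 23.6, 16.8, 21.6, 24.4 and 17.8 FPKM, and HFWT libraries 75.3, 82.0, 67.6, 71.8 and 59.1 FPKM. NDKO libraries held 30.7, 30.2, 31.5, 29.2 and 23.0 FPKM, and HFKO libraries 68.2, 63.6, 82.4, 57.5 and 91.5 FPKM. The diets did not overlap in either genotype, and the log2FC was 1.77 in WT (SE 0.13, FDR 6.52e-10) and 1.31 in mice labelled null (SE 0.13, FDR 4.74e-08).

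Mmp2 and Mmp9 are the gelatinases, which cut denatured collagen and the collagen of basement membranes. Mmp2 was at 1.15, 1.38, 0.943, 0.710 and 0.858 FPKM in NDWT and at 31.6, 22.4, 17.4, 15.1 and 15.1 FPKM in HFWT. It was at 1.32, 1.48, 1.06, 1.01 and 1.21 FPKM in NDKO and at 28.9, 16.04, 27.7, 16.7 and 24.3 FPKM in HFKO. The lowest CDAHFD library lay far above the highest control library, and the log2FC was 4.18 in WT (SE 0.21, FDR 4.14e-12) and 4.09 in mice labelled null (SE 0.21, FDR 7.78e-12). Mmp9 stayed far lower, at 0.142 to 0.372 FPKM in NDWT, 0.124 to 0.363 in NDKO, 1.08 to 1.43 in HFWT and 0.786 to 1.65 in HFKO. Its diets did not overlap either, with a log2FC of 1.94 in WT (SE 0.24, FDR 5.52e-07) and 1.87 in mice labelled null (SE 0.24, FDR 9.73e-07). Quantile normalization gave smaller values for Mmp9, 0.76 and 0.81, still called. Mmp9 had at most 23 fragments in an NDWT library and 24 in an NDKO library. Over all alternative runs its log2FC ran from 0.76 to 2.32 in WT and from 0.79 to 2.28 in mice labelled null. On CDAHFD the mean level of Mmp2 was 20.3 ± 6.97 FPKM in HFWT against 1.21 ± 0.157 for Mmp9 (SD, n = 5).

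Mmp19 is a metalloproteinase of basement membrane proteins made by many cell types, and was the second of the 7 enzymes by level on the control diet. It was at 10.3, 9.88, 11.8, 10.1 and 11.6 FPKM in NDWT and at 16.5, 12.7, 17.2, 12.3 and 15.6 FPKM in HFWT. It was at 8.78, 9.67, 7.75, 8.81 and 12.95 FPKM in NDKO and at 15.4, 14.8, 15.3, 14.7 and 12.4 FPKM in HFKO. The diets did not overlap in WT, while in mice labelled null the highest control library lay above the lowest CDAHFD library. The log2FC was 0.46 in WT (SE 0.12, FDR 0.00203), which is under the fold threshold, and 0.61 in mice labelled null (SE 0.12, FDR 1.51e-04), just over it. Relative to the median gene these values were -0.075 and 0.11, and with median of ratios scaling they were -0.10 (FDR 0.501) and 0.078 (FDR 0.608). Without NDKO replicate 3 the value in mice labelled null was 0.54 and the gene was no longer called. Mmp19 shares 936 of its 3508 stretches of 31 bases with other genes, mostly with the antisense gene Tmem198b, which was at most 2.41 FPKM.

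Among the inhibitors, Timp1 is a soluble inhibitor widely used as a marker of liver fibrosis. It was at 0.097, 0.067, 0.190, 0.262 and 0.113 FPKM in NDWT, from 1 to 4 fragments per library, and at 11.1, 10.04, 8.22, 9.03 and 5.15 FPKM in HFWT. In NDKO it was at 0 in 3 libraries and at 0.099 and 0.120 FPKM in the other two, and in HFKO at 7.04, 7.63, 7.83, 5.01 and 8.04 FPKM. Timp1 thus went from the edge of detection to 79 to 177 fragments per CDAHFD library. The log2FC was 5.18 in WT (SE 0.27, FDR 5.01e-12) and 5.73 in mice labelled null (SE 0.27, FDR 2.56e-12), against 3.05 and 2.94 with 1 added before the log. The ratio of pooled fragments was 61.4 in WT (95% interval 34.9 to 119) and 154 in mice labelled null, with 593 fragments against 4 and an interval of 59.9 to 567.

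Timp2, which also takes part in the activation of Mmp2, was the highest inhibitor in every group. It was at 3.73, 3.98, 3.71, 3.40 and 3.09 FPKM in NDWT and at 41.0, 36.4, 29.9, 24.6 and 27.9 FPKM in HFWT. It was at 3.93, 4.33, 4.81, 3.31 and 3.70 FPKM in NDKO and at 29.0, 21.5, 32.1, 22.1 and 31.9 FPKM in HFKO. No CDAHFD library overlapped a control library, and the log2FC was 3.10 in WT (SE 0.14, FDR 1.22e-12) and 2.73 in mice labelled null (SE 0.14, FDR 8.20e-12). Timp3, which is held in the matrix, was at 1.91 to 2.02 FPKM in NDWT, 1.62 to 2.24 in NDKO, 3.58 to 8.58 in HFWT and 3.88 to 7.41 in HFKO. Its groups did not overlap between diets, with a log2FC of 1.52 in WT (SE 0.18, FDR 3.96e-07) and 1.48 in mice labelled null (SE 0.18, FDR 6.24e-07). Timp3 shares 1766 of its 8071 stretches of 31 bases with other genes, and 1707 with the antisense gene Syn3, which was at most 0.091 FPKM.

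Over all members, groups on the 2 diets did not overlap for 10 of 10 genes in WT, where 56.2% of all tested genes did not overlap, and for 9 of 10 in mice labelled null, where 57.8% did not. The non-overlap was therefore common to most of the transcriptome. By log2FC, Mmp12, Mmp7 and Timp1 ranked 2, 5 and 23 among the increases in WT and 2, 11 and 7 in mice labelled null. These ranks rest on control levels near 0 and so on the amount added before the log. With 1 added, Mmp2 (3.36 in WT) lay above Timp1 (3.05).

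**Figure D3:**
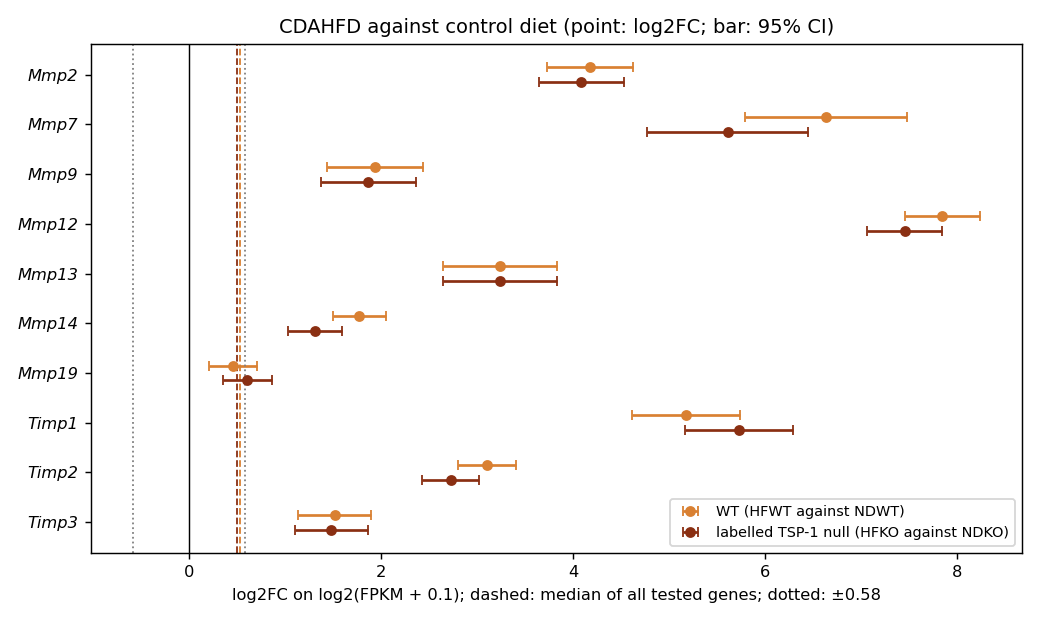
Change of each gene on CDAHFD against the control diet, as log2FC on log2(FPKM + 0.1) with 95% confidence intervals, for WT and for mice labelled TSP-1 null (5 mice per group). Dashed lines mark the median of all tested genes (0.53 and 0.50) and dotted lines the fold threshold. Mmp12 stands highest at 7.85 and 7.45, and Mmp19 lies close to the dashed lines.

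The order of the levels changed with the diet. In NDWT the mean levels ran from Mmp14 (20.8 ± 3.39 FPKM) over Mmp19 (10.7 ± 0.884), Timp2 (3.58 ± 0.345), Timp3 (1.97 ± 0.0412) and Mmp2 (1.01 ± 0.261) to Mmp9 (0.252 ± 0.103; SD, n = 5 each). These neighbours did not overlap from library to library, while Mmp9, Timp1, Mmp12, Mmp13 and Mmp7 below them overlapped in turn. In HFWT, Mmp14 (71.1 ± 8.57 FPKM) and Mmp12 (51.0 ± 5.57) stood apart from all others, and Timp2 (31.9 ± 6.63), Mmp2, Mmp19, Mmp7 (12.7 ± 5.77), Timp1 (8.71 ± 2.27) and Timp3 (6.08 ± 1.93) each overlapped with the next. In HFKO, Mmp14 (72.6 ± 13.97 FPKM) stood apart, and the ranges of Mmp12 (35.7 ± 6.80) and Timp2 (27.3 ± 5.20) overlapped.

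Summed over the 7 enzymes, the level was 28.5 to 35.6 FPKM in NDWT, 37.6 to 41.7 in NDKO, 153 to 190 in HFWT and 128 to 188 in HFKO. Summed over the 3 inhibitors it was 5.22 to 5.96 FPKM in NDWT, 5.24 to 6.73 in NDKO, 37.2 to 60.7 in HFWT and 32.5 to 47.4 in HFKO. The ratio of summed enzymes to summed inhibitors was 4.79 to 6.29 in NDWT and 3.12 to 4.43 in HFWT, and 6.06 to 7.62 in NDKO and 3.83 to 4.30 in HFKO, so that it was lower in every CDAHFD library than in every control library. The make-up of the enzyme sum changed too: Mmp14 gave 58.03 to 68.7% of it in NDWT and 38.6 to 43.8% in HFWT, Mmp12 went from at most 0.599% to between 23.0 and 35.1%, and Mmp19 went from 28.6 to 37.7% down to 6.77 to 10.2%. Timp2 gave 59.2 to 66.9% of the inhibitor sum in NDWT and 66.1 to 72.2% in HFWT. These sums describe RNA levels of the 10 genes and not enzyme activity.

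**Figure D4:**
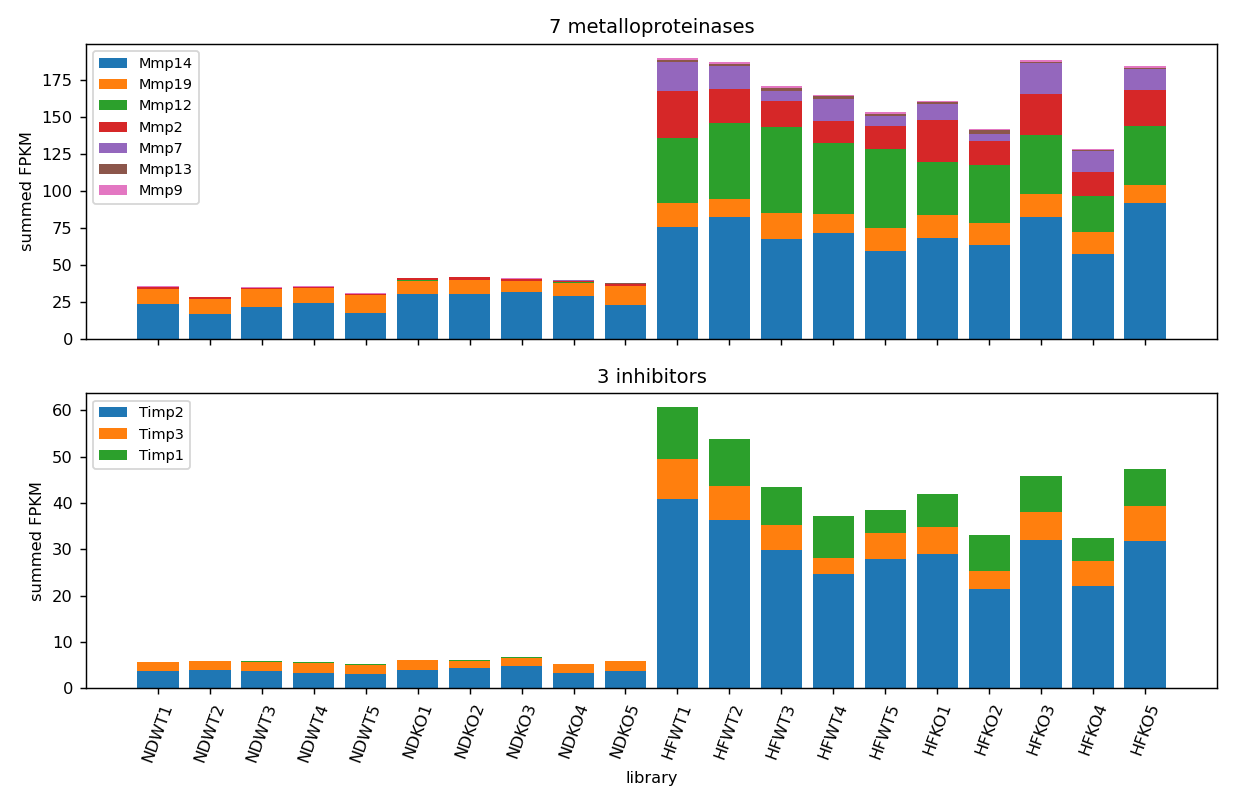
Summed FPKM of the 7 metalloproteinases (top) and the 3 inhibitors (bottom) in each of the 20 livers, stacked by gene from 0. The enzyme sum reaches 153 to 190 FPKM in HFWT against 28.5 to 35.6 in NDWT, with Mmp12, Mmp14 and Mmp2 filling most of the added height, and Timp2 makes up most of every inhibitor bar.

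Members did not vary alike between mice of the same group. In HFWT, replicate 1 was the highest library for 6 members, Mmp2, Mmp7, Mmp9, Timp1, Timp2 and Timp3, and the lowest for Mmp12. HFWT replicate 4 was the lowest for 5 members, Mmp2, Mmp9, Mmp19, Timp2 and Timp3. The summed level of the myofibroblast markers Acta2, Col1a1, Col3a1, Lum and Tagln was also highest in HFWT replicate 1 (275 FPKM) and lowest in HFWT replicate 4 (131 FPKM). In HFKO, replicate 4 was lowest for Mmp9, Mmp12, Mmp14 and Timp1 and had the lowest myofibroblast sum (117 FPKM). HFKO replicate 2 was also the lowest for 4 members, Mmp2, Mmp7, Timp2 and Timp3, while its myofibroblast sum (164 FPKM) was the middle one of 5. In that library the lipid-associated macrophage (404 FPKM), cholangiocyte (181 FPKM) and endothelial (45.6 FPKM) sums, with markers given next, were the lowest of 5. Its macrophage (877 FPKM) and hepatocyte (41541 FPKM) sums were the middle ones, and its Kupffer cell sum (217 FPKM) was the second highest. The summed macrophage markers described next were highest in HFWT replicate 1 (1331 FPKM) and, in HFKO, lowest in replicate 4 (612 FPKM). In HFWT replicate 4 that sum (1242 FPKM) was the middle one of 5. The summed stellate cell markers, also given next, were highest in HFWT replicate 1 (64.8 FPKM) and lowest in HFWT replicate 4 (33.1 FPKM). In HFKO replicate 4 they were the second highest of 5 (44.5 FPKM). The summed hepatocyte markers were lowest in HFWT replicate 1 (27626 FPKM) and highest in HFWT replicate 4 (39626 FPKM) and HFKO replicate 4 (46739 FPKM). The part of these markers in the members' values was not tested.

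Markers of other cell types moved with diet. All 5 macrophage markers (Adgre1, Cd68, Csf1r, Lyz2, C1qa) were called higher in both diet comparisons, with a summed level of 119 to 157 FPKM in NDWT and 981 to 1331 in HFWT. The same held for all 5 lipid-associated macrophage markers (Trem2, Gpnmb, Cd9, Spp1, Fabp5; 20.3 to 31.1 and 602 to 822 FPKM), all 5 myofibroblast markers (8.85 to 12.2 and 131 to 275 FPKM) and all 5 cholangiocyte markers (Krt7, Krt19, Epcam, Sox9, Spp1; 15.2 to 18.0 and 292 to 488 FPKM). Markers of Kupffer cells, the resident macrophages of the liver, did not follow: Timd4 (log2FC -3.52 in WT and -3.13 in mice labelled null) and Clec4f (-1.22 and -0.77) were called lower, Marco and Vsig4 were not called, and Cd5l was called higher only in mice labelled null. Their summed level was 149 to 200.1 FPKM in NDWT and 104 to 228 in HFWT. All 5 stellate cell markers (Pdgfrb, Des, Rgs5, Lrat, Reln; 15.8 to 20.8 and 33.1 to 64.8 FPKM) were called higher in both comparisons. Of the 5 endothelial markers, Lyve1 was called higher in both and Pecam1 in mice labelled null, with a sum of 45.3 to 48.9 FPKM in NDWT and 41.1 to 60.3 in HFWT. Of the 4 mesothelial markers tested, 4 were called higher in WT and 2 in mice labelled null, with a sum of 1.18 to 2.88 FPKM in NDWT and 4.09 to 10.5 in HFWT. Of the neutrophil markers, S100a8, S100a9 and Retnlg were called higher, Cxcr2 and Ly6g did not pass the filter, and Ly6g was at 0 in every NDWT and HFWT library. Of the 5 hepatocyte markers, 0 were called in WT and Cyp2e1 and Cps1 were called lower in mice labelled null. The part of these cell types in the members' levels was not tested.

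For each member, the genes with the most similar profile over the 20 libraries were named by the root mean square (RMS) distance of centred log2 values. The nearest to Mmp12 was Gpnmb at an RMS of 0.55, followed by Gsta1 at 0.87 and Vsig8 at 0.92. Mmp7 was nearest to Trem2 (0.71), Emp1 and Clec4d, and Timp1 to Atf3 (0.49), Adam8 and Fam83a. Mmp2 was nearest to Ltbp2 (0.26), Eln and Ddr1, and Timp2 to Col6a1 (0.18), Pamr1 and Ezr. Mmp13 lay nearest to Mogat2 (0.37), Haus8 and Lilrb4, Mmp9 to Pdlim2 (0.22), Apbb1ip and Arhgdia, and Timp3 to Arrb1 (0.17), Sspn and Lix1l. Mmp14 was nearest to Plekhm2 (0.16), Hmga1 and Bcl2l11, and Mmp19 to Cutal (0.12), Mapk9 and Rnf141. These libraries share the diet contrast, which dominates the profiles, and the distance is smaller for genes that change less.

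The other 17 family genes in the table were mostly too low to test. Mmp11, Mmp15, Mmp17, Mmp23 and Mmp27 passed the filter, and all 5 were called higher in both diet comparisons. Of all genes tested, 44.1% were called higher in WT and 41.9% in mice labelled null. Mmp11, Mmp17, Mmp23 and Mmp27 had medians of 0.117 to 0.480 FPKM in NDWT and NDKO, below the level of the filter. They passed it only with the CDAHFD libraries, where they were higher, and their part in the count is no independent evidence. Mmp15 was above that level in every library, at 4.53 FPKM or more in NDKO. The log2FC was 2.90 in WT and 2.69 in mice labelled null for Mmp23, and 1.77 and 2.42 for Mmp15, another membrane-type enzyme. It was 1.71 and 1.76 for Mmp11, or stromelysin 3, 1.49 and 1.15 for Mmp17, and 1.27 and 1.40 for Mmp27.

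Of 20 genes for activation, clearance and control of metalloproteinases, 19 were tested, and 9 were called higher and 0 lower in WT. In mice labelled null 8 were called higher and 0 lower, with a median log2FC of 0.27 and 0.42 over the 19 genes against 0.53 and 0.50 over all genes. These counts are close to the background of 44.1% and 41.9% of all genes called higher. Plaur, the receptor of urokinase, had a log2FC of 4.41 in WT and 4.32 in mice labelled null, and Plat, the tissue plasminogen activator, 5.16 and 4.69. Lcn2 had a log2FC of 5.34 in mice labelled null, and Cd44, a cell surface anchor of metalloproteinases, had 2.54 there. Thbs2, a relative of Thbs1, had 2.93 in WT, where Thbs1 had 4.03. Not called were 10 genes in WT and 11 in mice labelled null, among them Plg, the plasminogen zymogen made by hepatocytes, Furin and Lrp1. Of 16 matrix proteins that metalloproteinases cut, 15 were tested, and all but Fn1 were called higher in both diet comparisons. Their median log2FC was 2.496 in WT and 2.17 in mice labelled null. Spp1, or osteopontin, had a log2FC of 4.76 in WT and 4.50 in mice labelled null, and the fibrillar collagen genes Col3a1 and Col5a2 had 4.46 and 3.94 in WT.

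The next question was whether the libraries labelled TSP-1 null differ from WT on the same diet. On the control diet limma called 0 of the 10 members, where 4.77% of all genes were called. At an unadjusted p under 0.05 there were 3, Mmp14, Timp1 and Mmp7, and voom on recovered fragments also called 0. The share of all genes at that unadjusted threshold is not given here, so these 3 have no background. With no fold threshold, 1899 of the 14524 genes tested had an FDR under 0.05. Mmp14 came closest among the well measured genes. Its NDKO libraries, at 23.0 to 31.5 FPKM, overlapped with NDWT, at 16.8 to 24.4 FPKM, only through NDKO replicate 5. The log2FC was 0.48 (SE 0.13, 95% interval 0.20 to 0.76, FDR 0.0225), past the FDR threshold and under the fold threshold. The FDR was above 0.05, at up to 0.0625, without NDWT replicate 2, NDWT replicate 5, NDKO replicate 1 or NDKO replicate 3, and 0.00926 without NDKO replicate 5.

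Timp1 and Mmp7 had larger fitted differences on the control diet that rest on a few fragments. Timp1 had 12 fragments over the 5 NDWT libraries and 4 over the 5 NDKO libraries, for a log2FC of -0.81 (SE 0.27, FDR 0.0508). Mmp7 had 3 fragments in NDWT and 16 in NDKO, for a log2FC of 1.02 (SE 0.40, FDR 0.103). Both depend on the amount added before the log, as 0.01 in place of 0.1 gave -2.39 (FDR 0.0170) and 2.97 (FDR 0.00703), and 1 gave -0.13 and 0.18. Leaving out NDWT replicate 2, NDKO replicate 2, NDKO replicate 3, HFWT replicate 5 or HFKO replicate 4 brought the FDR of Timp1 under 0.05 (0.0207 to 0.0499). The other members had a log2FC between -0.48 (Mmp13, FDR 0.295) and 0.27 (Mmp2, FDR 0.456). Across all genes 9.03% had groups that did not overlap, and none of the members did.

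On CDAHFD limma called 0 of the 10 members, where 0.496% of all genes were called, and voom on recovered fragments also called 0. At an unadjusted p under 0.05 there was 1, Mmp12, and the share of all genes at that threshold is not given here. With no fold threshold, 163 of the 14524 genes tested had an FDR under 0.05. As given above, all 5 HFKO libraries, at 24.0 to 40.2 FPKM, lay below all 5 HFWT libraries, at 43.6 to 58.4 FPKM, a separation that 4.98% of all genes showed. The log2FC was -0.53 (SE 0.19, 95% interval -0.93 to -0.14, FDR 0.159 in limma), so the difference did not pass the correction over all genes. The FDR was under 0.05 with 1 added before the log (0.0175) and with voom on recovered fragments (0.0307), at -0.52 and -0.53, still under the fold threshold. HFKO replicate 4 was the lowest library, and without it the log2FC was -0.39 (FDR 0.324). The summed lipid-associated macrophage markers were 602 to 822 FPKM in HFWT and 404 to 650 FPKM in HFKO. In limma 0 of these 5 were called, and Spp1, Cd9 and Trem2 had an unadjusted p under 0.05. The cholangiocyte sum, which also holds Spp1, was 292 to 488 FPKM in HFWT and 181 to 360 FPKM in HFKO. The mesothelial sum was 4.09 to 10.5 and 3.69 to 5.53 FPKM, and the Kupffer cell sum 104 to 228 and 139 to 296 FPKM. The sum of the general macrophage markers overlapped, at 981 to 1331 FPKM in HFWT and 612 to 1356 FPKM in HFKO. The hepatocyte sum was 27626 to 39626 FPKM in HFWT and 35107 to 46739 FPKM in HFKO. The part of these markers in the level of Mmp12 was not tested.

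The other members overlapped between HFWT and HFKO. Mmp13 had a log2FC of -0.48 (95% interval -1.07 to 0.12), Timp1 of -0.26 (-0.82 to 0.30) and Timp2 of -0.22 (-0.52 to 0.076). Mmp2 had 0.18 (-0.27 to 0.62) and Mmp14 0.018 (-0.26 to 0.30), so that a change of Mmp14 beyond the fold threshold lay outside its interval. For Mmp7 the interval was wide, from -0.85 to 0.83 around -0.0067. Mmp9, Mmp19 and Timp3 had log2FC between -0.058 and -0.027, with a sign that turned under median of ratios scaling and quantile normalization.

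**Figure D5:**
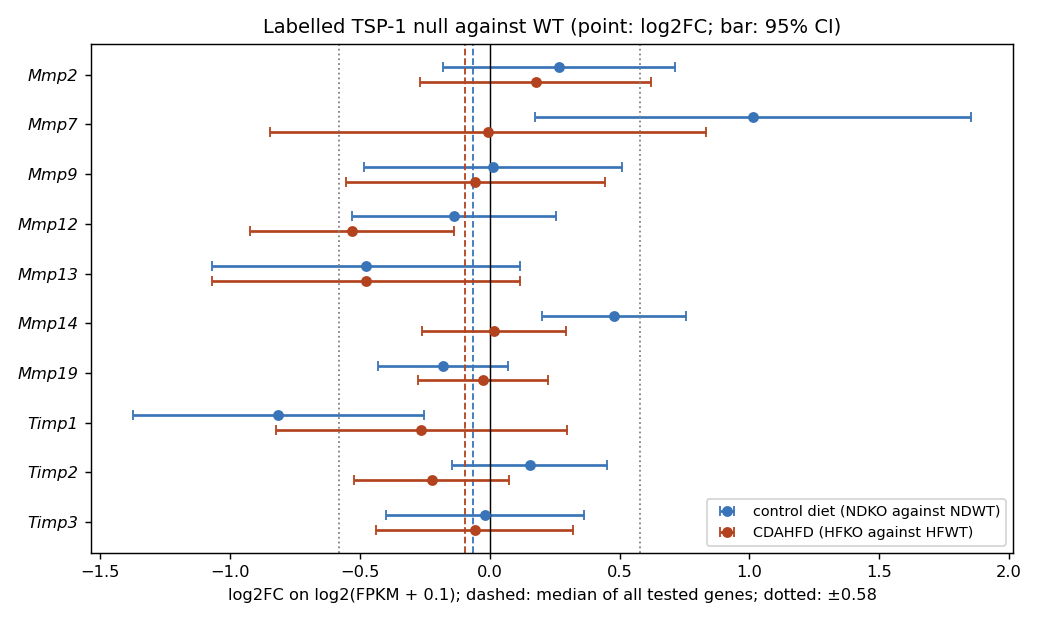
Difference of the libraries labelled TSP-1 null from WT libraries on the control diet and on CDAHFD, as log2FC on log2(FPKM + 0.1) with 95% confidence intervals (5 mice per group). Dashed lines mark the median of all tested genes and dotted lines the fold threshold. Intervals that exclude 0 belong to Mmp14 (0.48), Timp1 (-0.81) and Mmp7 (1.02) on the control diet and to Mmp12 (-0.53) on CDAHFD, before correction over all genes.

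The last question was whether the effect of the diet differed between genotypes, tested as the interaction. In limma and with voom on recovered fragments it was called for 0 of the 10 members, where limma called 0.647% of all genes. At an unadjusted p under 0.05 there was 1, Mmp14, and the share of all genes at that threshold is not given here. With no fold threshold, 124 of the 14524 genes tested had an FDR under 0.05. The largest values were those of Mmp7 (-1.02, SE 0.57, FDR 0.416), Timp1 (0.55, SE 0.38, FDR 0.534), Mmp14 (-0.46, SE 0.19, FDR 0.244), Mmp12 (-0.39, SE 0.27, FDR 0.526) and Timp2 (-0.38, SE 0.20, FDR 0.396). For Mmp14 the interval of the interaction, -0.85 to -0.068, excluded 0 before the correction. Its log2FC with diet was 1.77 in WT and 1.31 in mice labelled null.

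Around the members, Mmp15 was lower in NDKO than in NDWT, with a log2FC of -0.87 (SE 0.20, FDR 0.00722). Of the activation and clearance list, Thbs1 was higher in NDKO, and Cd44 was lower with a log2FC of -1.11 (SE 0.18, FDR 6.48e-04). Thbs1 had an interaction of -2.66 (SE 0.33, FDR 0.00230). Of the cell type markers, Trem2 and Cps1 were called higher and Acta2 lower in NDKO than in NDWT. Trem2 was also called lower in the interaction, and none of these markers was called by genotype on CDAHFD. Among the 15 matrix substrates tested, limma called 0 in either genotype comparison or in the interaction. An unadjusted p under 0.05 was seen for 4 on the control diet, 3 on CDAHFD and 2 in the interaction. The share of all genes at that unadjusted threshold is not given here.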

How the data were processed

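Liver poly(A) RNA was sequenced by the authors, 1 library for each of 20 mice. The deposited table holds FPKM per gene, with no further normalization between libraries. The submitters' notes name STAR 2.5.2 and featureCounts of Subread 1.5.1, and list a human build (GRCh38), while the table's coordinates are those of mouse GRCm38: 37607 gene identifiers are also in GENCODE M21, and 99.8% of these overlap their gene in that annotation. The strand setting of the counting is not given in the sources used here. For the lobe that gave the RNA, the series text names the right medial one, the paper the right lateral one. Groups follow the sample labels, which call the control diet Normal Diet.

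Fragments were recovered from FPKM, gene length and library total: 100% of checked values, which were 93.3% or more of the positive values of each library, came out whole within 0.1. limma 3.58.1 (R 4.3.3; lmFit, contrasts.fit, eBayes with trend) was run on log2(FPKM + 0.1) of 14524 genes, those that exceeded 0.5 FPKM in 5 or more libraries, with all 20 libraries in 1 fit and 1 mean per group. The FDR is the two-sided Benjamini-Hochberg value over all genes of a comparison. The fit was tested on simulated data. Ratios of pooled fragments carry exact 95% intervals. Members and lists were chosen with earlier results of these data known. Every member is named; of the other lists, the 4 genes of lowest FDR in a diet comparison and any called by genotype, and further genes named as not called were chosen after their values were seen. For each member the 3 genes of nearest profile are given. Tables and figures used Python 3.11.15, pandas 2.3.3, numpy 2.4.6, scipy 1.17.1 and matplotlib 3.10.9. Values of 1 gene of the activation and clearance list and of the lymphocyte marker list are not reported here.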

Additional observations from a re-analysis of the deposited data

Results flagged for a closer look

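Of 40 sets of 5 libraries, 1 for each member and group, 5 held a library far from the other 4, where chance alone gives about 1 in 20. Mmp12 was at 24.0 FPKM in HFKO replicate 4, with the others at 35.6 to 40.2 FPKM. Timp1 was at 5.01 FPKM in the same library, with the others at 7.04 to 8.04 FPKM. Mmp14 was at 23.0 FPKM in NDKO replicate 5, with the others at 29.2 to 31.5 FPKM. Mmp19 was at 12.4 FPKM in HFKO replicate 5, with the others at 14.7 to 15.4 FPKM. Mmp7 was at 0.121 FPKM in NDWT replicate 1, from 3 fragments, with the others at 0.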

How the results depend on the processing

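On CDAHFD, 9 members were called higher in WT under every alternative run but 1, and 10 with no fold threshold. In mice labelled null 10 were called, and 9 under 4 alternatives, where Mmp19 was not called: with 1 added before the log (0.56), with median of ratios scaling (0.078), with quantile normalization (0.18) or without NDKO replicate 3 (0.54). In WT its log2FC turned to -0.10 with median of ratios scaling. On the control diet the genotype comparison called 0 members, but 2 with 0.01 added before the log (Mmp7 and Timp1), 1 with a filter at 1 FPKM (Timp1), 1 with median of ratios scaling (Timp1), 1 with quantile normalization (Mmp7), 1 with no fold threshold (Mmp14), and 0 to 1 when single libraries were left out (Timp1). The cause was not tested. On CDAHFD and in the interaction 0 members were called under every alternative run. The interaction was not run with only the groups compared, since it needs all 4.

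Genotype differences close to 0 changed sign. On the control diet Mmp9 was -0.024 with voom on recovered fragments, and Timp3 was 0.053 with median of ratios scaling and 0.058 with quantile normalization. On CDAHFD median of ratios scaling and quantile normalization gave 0.094 and 0.072 for Mmp7, 0.038 and 0.11 for Mmp9, 0.074 and 0.043 for Mmp19, and 0.041 and 0.052 for Timp3, and voom gave 0.016 for Mmp7. In the interaction, 1 added before the log gave 0.022 for Mmp2, -0.20 for Mmp13 and -0.10 for Timp1, and quantile normalization gave 0.043 for Mmp9. With single libraries left out, the log2FC on the control diet ran from -0.11 to 0.17 for Mmp9 and from -0.068 to 0.044 for Timp3. On CDAHFD it ran from -0.21 to 0.29 for Mmp7, -0.18 to 0.069 for Mmp9, -0.071 to 0.096 for Mmp14, -0.091 to 0.030 for Mmp19 and -0.23 to 0.079 for Timp3. The interaction ran from -0.20 to 0.084 for Mmp2, -0.22 to 0.056 for Mmp9, -0.22 to 0.20 for Mmp13 and -0.21 to 0.098 for Timp3.

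The labels share replicate numbers 1 to 5 across groups, but the numbers did not pair the samples: the deviations of same-numbered libraries correlated at -0.13 to 0.081 over 30 pairs, 0 of them over 0.1, and 4 of 20 libraries lay closest to their own number. With the replicate number as a block, 9, 10, 0, 0 and 0 members were called in the 2 diet comparisons, the 2 genotype comparisons and the interaction. Over all genes, the counts called that moved by over 1.5 times were those by genotype on the control diet (693) with 1 added before the log (393) and no fold threshold (1899), by genotype on CDAHFD (72) with no filter (127), voom (132), no fold threshold (163) and only the groups compared (40), in the interaction (94) with no filter (54), and by diet in mice labelled null (6669) with no fold threshold (10406). With single libraries left out, the count by genotype on CDAHFD ran from 38 to 84 and that of the interaction from 36 to 184. Depth limits Mmp7, Mmp9, Timp1, Mmp12 and Mmp13 on the control diet, where their fitted values rest on few fragments.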
